A study of Mus musculus with 15 samples.

Results

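The genes described here are 9 markers that the intestinal epithelium shows in fetal life and again during repair: Ly6a, Clu, Anxa1, Anxa3, Anxa8, Il33, Msln, S100a6 and Plaur. They were taken by symbol from deposited tables of reads per gene, which list 45905 genes, and all 9 were found and passed the filter on low counts. The study concerns plakoglobin, the junction protein encoded by Jup, in intestinal inflammation. Poly(A) RNA was sequenced in 15 libraries from mouse gut, in 5 groups of 3, of which 3 groups are organoids (epithelial structures cultured in a gel) and 2 are pieces of gut. Age, sex and strain background are not given in the labels.

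The organoid libraries described as Tamoxifen bear the code T41, and in their titles floxed Jup stands together with a tamoxifen-inducible Cre recombinase driven by the villin promoter, which is active in intestinal epithelium. The organoid libraries described as DMSO, the usual solvent of tamoxifen, and those described as nativ bear the code T75, and their titles name floxed Jup and no Cre. Code, Cre transgene and treatment therefore changed together between these organoids and cannot be told apart, and no organoid group holds more than 1 code. The labels do not say that replicates were separate cultures, so p-values measure the spread between these libraries, which may be technical. Chi-square per degree of freedom between the counts of a pair of libraries, near 1 for counting error alone, was 2.21 to 3.72 in Tamoxifen. It was 29.6 to 57.4 in DMSO and 7.99 to 105 in nativ organoids. In the tests below all organoid libraries share 1 estimate of the spread per gene. The gut libraries are described as ctr and PG_KO, each with a code of its own, but their titles put the Cre on the ctr libraries and name colitis from dextran sodium sulfate, which injures the epithelium, with floxed Jup on the PG_KO libraries. Gut groups are named by the descriptions, and which animals had colitis is not settled by the labels.

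Library totals ran from 23194385 to 30744563 reads. Jup stood at 70.3 ± 1.20 CPM (counts scaled by the library total, mean ± SD, n = 3) in Tamoxifen organoids against 384 ± 27.8 in DMSO and 352 ± 67.2 in nativ organoids. In gut it stood at 79.4 ± 3.89 CPM in PG_KO and 390 ± 97.4 in ctr libraries, so low Jup went with the descriptions. The organoid groups also differed in markers of their tissue. Summed over 8 genes of intestinal identity, levels were 6041 to 6072 CPM in Tamoxifen organoids, 468 to 573 in DMSO and 532 to 705 in nativ organoids, where 4 of the 8 stayed below 1 CPM. The intestinal homeobox gene Isx had 0 reads in all DMSO organoids, and Cdx1, another such gene, reached at most 0.277 CPM in any DMSO or nativ library. A list of 12 genes of stomach, bile duct and pancreas ran the other way, at 22.2 to 22.4 CPM in Tamoxifen, 739 to 1028 in DMSO and 830 to 981 in nativ organoids, with Ptf1a at 0 in all of them. Their part in the differences of the 9 genes was not tested.

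In the fetal mouse the gut epithelium grows without the Lgr5-positive crypt stem cell of the adult, and cells cultured from it form thin-walled spheres. After injury adult crypts switch some of these fetal genes on again while stem cell genes fall, a state tied to YAP and TEAD transcription factors, which read tension and contact between cells. Ly6a encodes the surface protein Sca-1 and is the usual handle for sorting such cells, and Clu, which encodes the secreted chaperone clusterin, marks rare cells that rebuild the crypt. The annexins bind membranes in the presence of calcium, IL-33 is an alarm cytokine held in the nucleus, and mesothelin is a surface protein best known from the lining of body cavities. S100A6 is a small calcium-binding protein, and Plaur encodes the receptor for urokinase, the protease that activates plasminogen at the cell surface.

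The sequence before the start of transcription is shown for Plaur, which was lower in Tamoxifen organoids, and for the 2 starts of Il33, which was not. Each stretch holds the 250 bases before the start in the RefSeq promoter table (build GRCm38.p6), on the plus strand: Plaur at chr7:24462233-24462482, the first Il33 start at chr19:29924863-29925112 and the other at chr19:29945540-29945789. Capitals mark matches to the letters of the AP-1 motif (TGANTCA), the TEAD motif (GGAATG, or CATTCC on the opposite strand) and the TATA box (TATAAA).
Plaur: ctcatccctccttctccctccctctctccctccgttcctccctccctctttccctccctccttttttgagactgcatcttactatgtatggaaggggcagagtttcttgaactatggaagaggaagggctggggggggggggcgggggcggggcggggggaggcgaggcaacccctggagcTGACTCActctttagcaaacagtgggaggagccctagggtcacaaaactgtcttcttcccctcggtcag
Il33, first start: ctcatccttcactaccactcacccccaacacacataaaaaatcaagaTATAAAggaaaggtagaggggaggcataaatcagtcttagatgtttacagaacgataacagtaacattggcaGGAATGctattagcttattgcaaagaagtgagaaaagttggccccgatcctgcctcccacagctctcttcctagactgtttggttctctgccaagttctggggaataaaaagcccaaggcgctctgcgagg
Il33, other start: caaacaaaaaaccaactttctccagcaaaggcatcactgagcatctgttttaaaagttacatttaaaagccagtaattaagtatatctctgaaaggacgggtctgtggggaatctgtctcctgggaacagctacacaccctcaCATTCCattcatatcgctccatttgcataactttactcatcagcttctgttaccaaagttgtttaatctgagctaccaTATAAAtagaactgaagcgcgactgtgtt
By sequence, 6 transcripts of the GENCODE annotation started at the Plaur start, 1 at the other Il33 start and 0 at the first Il33 start. The AP-1 match of Plaur begins 69 bases before its start. The TEAD letters of Il33 begin 131 bases before the first start and 107 bases before the other, where the TATA box begins 29 bases before the start. Anxa1, on the minus strand of chromosome 19, held the TEAD letters 236 bases and a TATA box 32 bases before its start. The windows of S100a6 and Anxa8 held no match to these letters, and Ly6a, Clu, Anxa3 and Msln had no entry in the table. Searched on both strands, TEAD letters occurred in 12.6% of all 32851 windows of this length, AP-1 in 6.75%, the TATA box in 12.4% and the NF-kB motif, which no window of the 9 genes held, in 0.356%. A match is a description of these letters and not a bound site.

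**Figure D1:**
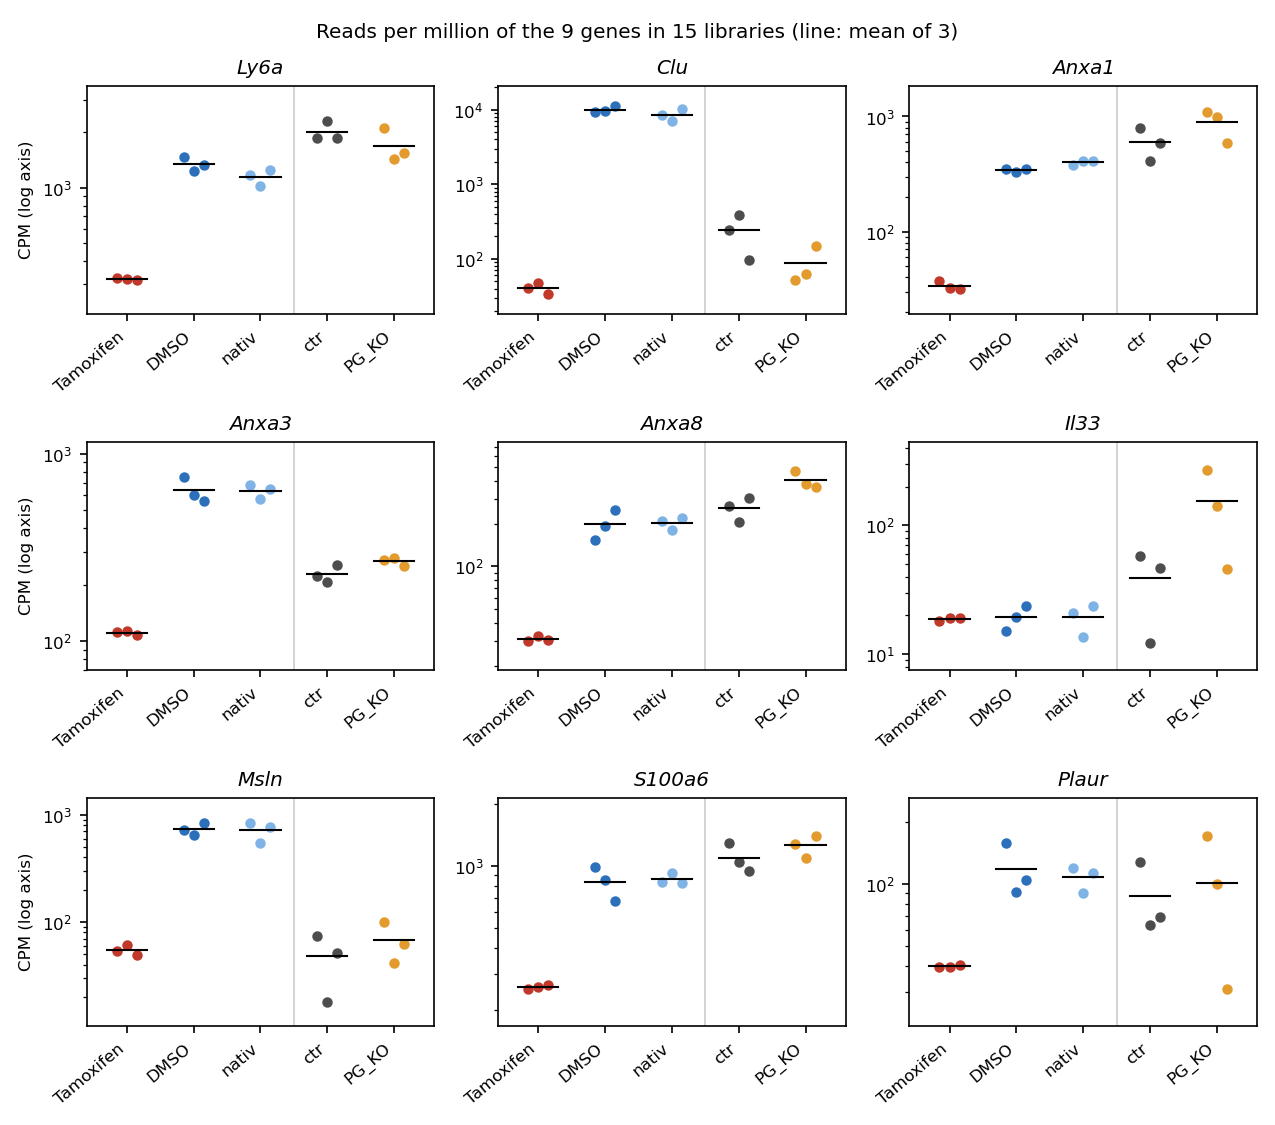
CPM of each of the 9 genes in 15 libraries, on a log axis that differs between panels; points are libraries, lines the mean of 3, and a vertical line parts organoids from gut. Tamoxifen organoids sit below DMSO and nativ organoids for 8 genes, and Il33 overlaps in all organoid groups.

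Tamoxifen organoids had lower levels of 8 of the 9 genes than DMSO organoids, from Clu at 257-fold to Plaur at 3.09-fold, and Il33 was the exception. The test was edgeR's quasi-likelihood test in a fit of all 9 organoid libraries, with calls at a Benjamini-Hochberg adjusted p under 0.05 over all 16449 genes tested. Most genes differed between these organoids: 66.3% were called in either direction with 32.4% called lower and 33.9% called higher in Tamoxifen. The 9 genes had a median log2 change of -2.60, and all genes tested had a median of 0.02. The 3 Tamoxifen libraries lay below the 3 DMSO libraries for the same 8 genes, and 34.4% of all genes did so. Bulk RNA does not separate fewer cells of a type from less RNA in each cell.

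Positions (build GRCm38.p6) are those of the whole gene, exons and introns, as the deposited tables give them beside the length of its combined exons. Ly6a (chr15:74994877-74998031, minus strand), the surface marker used to sort fetal-like cells, stood at 324, 321 and 319 CPM in the Tamoxifen libraries, at 1463, 1235 and 1331 CPM in DMSO and at 1166, 1024 and 1250 CPM in nativ libraries. The Tamoxifen values were nearly equal and far below the others, which overlapped. Ly6a fell by 2.13 on the log2 scale against DMSO (SE 0.11, edgeR adjusted p = 3.91e-08). Its deposited values were not whole in any of the 15 libraries, as when reads are divided among similar genes, so its level is uncertain to the extent that reads of near-identical family members were counted with it.

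Clu (chr14:65968483-65981548, plus strand), the clusterin gene that marks cells rebuilding the crypt, had the widest range of the 9. It stood at 41.2, 47.4 and 33.7 CPM in Tamoxifen libraries, at 9275, 9627 and 11140 CPM in DMSO and at 8443, 7096 and 10181 CPM in nativ libraries. No Tamoxifen library came near the others, in which Clu took between 0.710% and 1.11% of all reads. Per kilobase of exon it ranked between place 2 and 22 of 22006 protein-coding genes in the DMSO and nativ libraries, and between place 3179 and 4196 in Tamoxifen ones. The log2 change against DMSO was -8.01 (SE 0.25, edgeR adjusted p = 7.87e-10).

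All 3 annexins were lower in Tamoxifen organoids. Anxa1 (chr19:20373434-20390671, minus strand), whose protein dampens inflammation and aids wound closure, stood at 37.0, 32.6 and 31.8 CPM in Tamoxifen, 346, 330 and 348 CPM in DMSO and 381, 414 and 411 CPM in nativ libraries. The 3 groups were fully apart, and Anxa1 fell by 3.40 against DMSO (SE 0.12, edgeR adjusted p = 1.57e-09). Anxa3 (chr5:96793385-96845968, plus strand) stood at 111, 112 and 107 CPM in Tamoxifen, 748, 605 and 561 CPM in DMSO and 683, 571 and 645 CPM in nativ libraries. DMSO and nativ values were mixed, with Tamoxifen well below, and the change was -2.60 (SE 0.12, edgeR adjusted p = 1.77e-08). For Anxa8 (chr14:34085979-34100571, plus strand) the values were 29.7, 32.2 and 30.4 CPM in Tamoxifen, 154, 192 and 248 CPM in DMSO and 211, 180 and 219 CPM in nativ libraries. Again only Tamoxifen stood apart, and Anxa8 fell by 2.75 (SE 0.15, edgeR adjusted p = 7.15e-08).

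Msln (chr17:25748613-25754446, minus strand), the mesothelin gene, stood at 53.9, 60.7 and 49.3 CPM in Tamoxifen, 727, 646 and 846 CPM in DMSO and 843, 548 and 775 CPM in nativ libraries. Every Tamoxifen library lay far below the rest, and Msln fell by 3.82 (SE 0.16, edgeR adjusted p = 6.28e-09). The 6 other mesothelial markers summed to 11.97 to 13.6 CPM in Tamoxifen and to 0.104 to 0.328 CPM in DMSO and nativ organoids, and both tested ones, Upk3b and Upk1b, were called higher in Tamoxifen, opposite to Msln. Muc16, which encodes the mucin that binds mesothelin, had 0 reads in all Tamoxifen libraries and was too low to test.

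S100a6 (chr3:90612894-90614414, plus strand) stood at 253, 259 and 264 CPM in Tamoxifen, 986, 855 and 676 CPM in DMSO and 833, 928 and 824 CPM in nativ libraries. The lowest DMSO library was still above every Tamoxifen library, and S100a6 fell by 1.77 (SE 0.16, edgeR adjusted p = 4.01e-06). Plaur (chr7:24460937-24475970, plus strand), the urokinase receptor gene, stood at 39.4, 39.6 and 40.4 CPM in Tamoxifen, 158, 91.1 and 105 CPM in DMSO and 119, 90.6 and 113 CPM in nativ libraries. Its change of -1.63 was the smallest of those called (SE 0.16, edgeR adjusted p = 7.55e-06). Il33 (chr19:29925113-29960718, plus strand), the alarm cytokine gene, stood at 18.2, 19.0 and 19.1 CPM in Tamoxifen, 15.2, 19.4 and 23.8 CPM in DMSO and 20.9, 13.5 and 23.8 CPM in nativ libraries. All 3 groups overlapped, and the change of -0.12 (SE 0.18) was not called (edgeR adjusted p = 0.571).

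Against nativ organoids, which share the Tamoxifen libraries with the comparison above, 8 of the 9 genes were again called lower, beside 66.9% of all genes called in either direction and 33.5% called lower in Tamoxifen. The log2 changes were -1.95 for Ly6a, -7.83 for Clu, -3.70 for Anxa1, -2.64 for Anxa3, -2.84 for Anxa8, -3.83 for Msln, -1.86 for S100a6 and -1.55 for Plaur, with edgeR adjusted p between 9.30e-10 and 1.16e-05. Il33 changed by -0.15 (SE 0.18) and was not called (edgeR adjusted p = 0.474). The median of the 9 was -2.64, and that of all genes was 0.01. All 8 had Tamoxifen libraries below all nativ libraries, as did 31.6% of all genes.

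DMSO and nativ organoids, which differ only in the treatment named in their descriptions, gave log2 changes (DMSO minus nativ) between -0.29 and 0.18 for the 9 genes. edgeR called none of them, and 0% of all 16449 genes. At an unadjusted p under 0.05 there were 2408 genes, DESeq2 called 157 genes and limma-voom 0. Anxa1 was the 1 gene of the 9 past that unadjusted threshold, at -0.29 (SE 0.11, edgeR adjusted p = 0.298), and the 1 gene whose DMSO and nativ libraries did not overlap, as they did not for 14.1% of all genes.

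**Figure D2:**
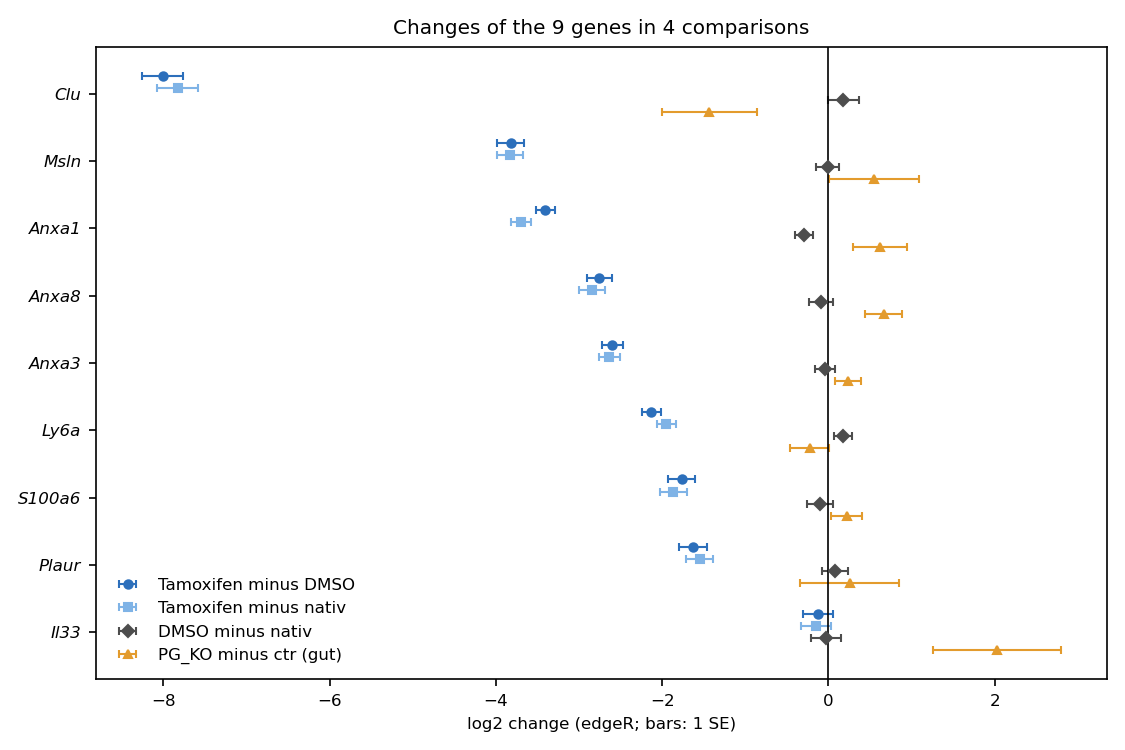
Log2 changes of the 9 genes in 4 comparisons, with bars of 1 SE from edgeR; the 3 organoid comparisons share libraries with each other. Both comparisons with Tamoxifen lie left of 0 for all 9 genes, Il33 closest to it, DMSO minus nativ lies near 0, and PG_KO minus ctr has wide bars, with Clu at -1.43 and Il33 at 2.03.

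Relations between the genes shifted with the group. Scaled per kilobase of exon (RPKM), Clu was the most abundant of the 9 in DMSO organoids at 4619 ± 457 (SD, n = 3) and in nativ organoids at 3954 ± 713, with 55.8% and 52.9% of their summed RPKM. In Tamoxifen organoids S100a6 led at 360 ± 7.72 RPKM, next to Ly6a at 321 ± 2.80, and Clu was at 18.8 ± 3.18. Gut tissue showed the same leading pair, with Ly6a at 2004 ± 254 and S100a6 at 1523 ± 244 RPKM in ctr, and S100a6 at 1751 ± 214 and Ly6a at 1688 ± 369 RPKM in PG_KO libraries. Il33 was last in all 3 organoid groups, at 6.44 to 6.69 RPKM on average, and in ctr gut at 13.3 ± 8.12. In PG_KO gut Il33 stood at 52.7 ± 38.9 RPKM, with Clu at 41.0 ± 24.8 and Msln at 30.2 ± 13.3 below it.

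**Figure D3:**
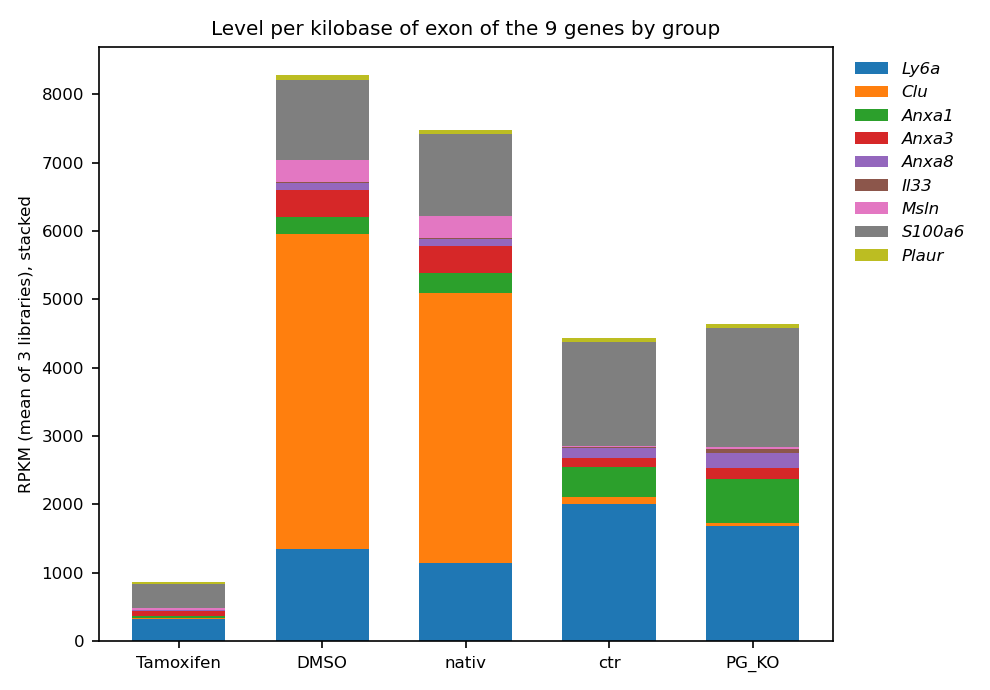
Stacked mean RPKM (CPM per kilobase of exon, 3 libraries a group) of the 9 genes in the 5 groups. Clu fills 55.8% of the bar in DMSO and 52.9% in nativ organoids, while Ly6a and S100a6 fill most of it in Tamoxifen organoids and in gut.

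Across the 5 groups the order of CPM levels fell into a few kinds. Ly6a, Anxa1, Anxa8 and S100a6 were lowest in Tamoxifen organoids, intermediate in the other organoids and highest in gut on average. Neighbours in that order overlapped, except that Tamoxifen organoids stood apart for all 4 genes, DMSO from nativ for Anxa1, nativ organoids from ctr gut for S100a6 and PG_KO from ctr gut for Anxa8. Clu, Anxa3 and Msln were highest in DMSO and nativ organoids, whose libraries overlapped, and lower in gut. For Clu the DMSO mean of 10014 CPM exceeded the ctr gut mean of 242 CPM, and the PG_KO gut mean of 89.0 CPM was still 2.18-fold above Tamoxifen organoids without overlap. Msln in Tamoxifen organoids overlapped with gut tissue of both kinds. Plaur overlapped between all neighbours in its order but ctr gut and Tamoxifen organoids, which were 2.18-fold lower on average, and 1 PG_KO library fell below the Tamoxifen values. Levels in organoids and gut are set side by side without a test, since tissue holds other cell types and the tables differ in source.

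Likeness of pattern was measured as the root mean square difference of centred mean log2 CPM over the 5 groups, among 12752 genes with at least 5 CPM in a group. Within the 9, Ly6a and S100a6 were the closest pair at 0.21 and Anxa1 and Anxa8 came next at 0.38, while Clu and Il33 were farthest at 3.99. The closest genes of the whole table were Mlph and Lpar6 for Plaur (0.040 and 0.049), Znrf1 and Kctd17 for Ly6a (0.087 and 0.093), Epb41l4a and Skil for S100a6 (0.098 and 0.10), and Xbp1 and Nradd for Anxa3 (0.11 and 0.12). Anxa8 was closest to Il7 and Procr (0.16 and 0.17), Anxa1 to Ikzf2 and Pmepa1 (0.23 and 0.29), and Msln to the pancreatic and duodenal factor Pdx1 and to Spns2 (0.24 and 0.29). Clu lay near Ccdc33 and Rassf9 (0.28 and 0.31), and Il33 near Creld2 and Hr (0.33 and 0.39). With 5 means a gene, such values describe these groups only.

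A list of 29 other genes of fetal-like and regenerative epithelium was tested in full in organoids. Against DMSO organoids 18 were called lower and 6 higher in Tamoxifen, with a median log2 change of -1.37, beside 32.4% lower and 33.9% higher of all genes and a median of 0.02. Against nativ organoids 19 were lower and 4 higher, with a median of -1.30, beside 33.5% of all genes in each direction and a median of 0.01. The members of smallest p were Spp1, Gja1, Basp1 and Ccn2. Spp1, which encodes osteopontin, stood at 0.240 ± 0.0798 CPM in Tamoxifen and 2245 ± 62.7 in DMSO organoids (log2 change -13.25, SE 0.26). The gap junction gene Gja1 was at -9.09, Basp1 at -8.83 and Ccn2 at -7.28. The genes of the list in the next sentences were chosen after their values were seen. The growth factor genes Areg and Ereg rose by 1.96 and 2.58, Emp1 by 1.47 and Anxa10 by 7.40, while Krt19 at 0.08 (edgeR adjusted p = 0.632) and Anxa2 at 0.10 (edgeR adjusted p = 0.466) were not called. Ccn1 fell by 4.06. Of the 19 genes of this list with a promoter entry, 8 held the AP-1 letters, 8 the TATA box and 2 the TEAD letters. Counted over their 25 windows the numbers were also 8, 8 and 2, beside 6.75%, 12.4% and 12.6% of all 32851 windows. These counts were not tested.

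**Figure D4:**
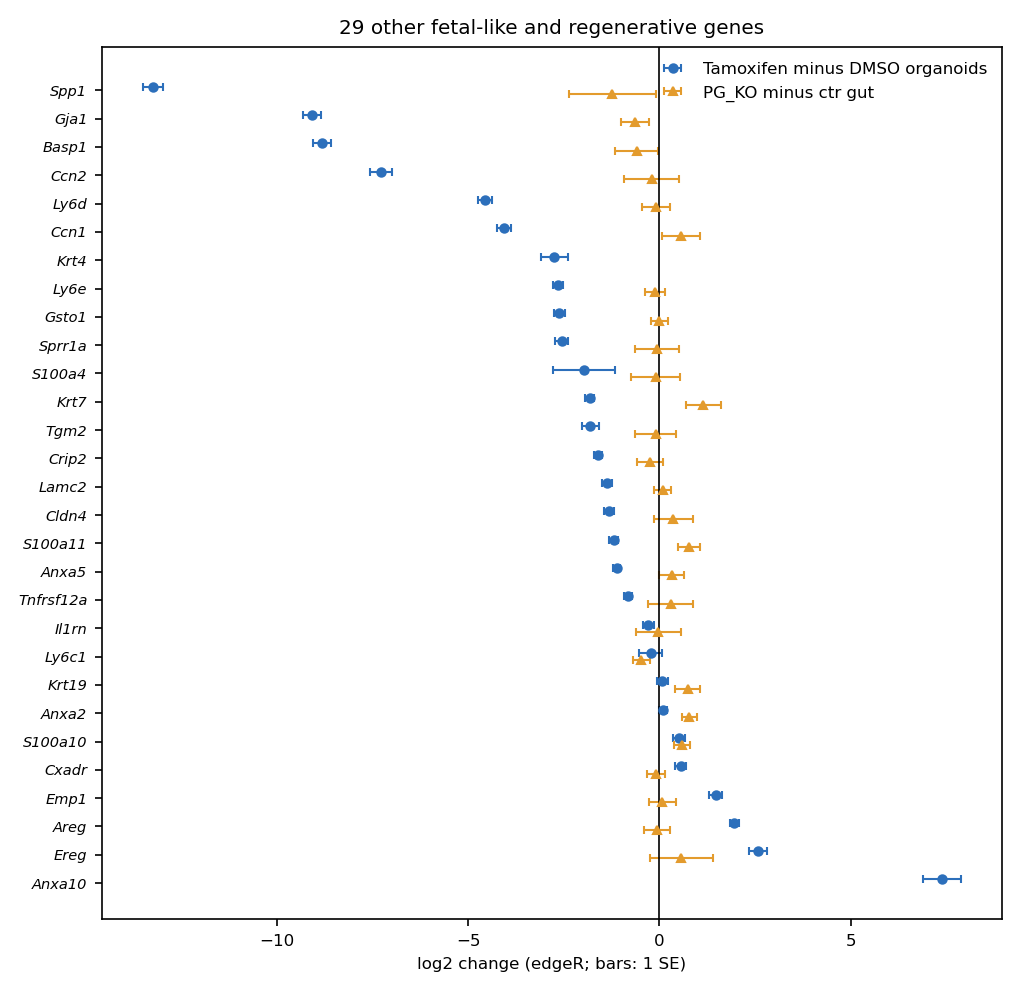
Log2 changes of 29 other fetal-like and regenerative genes, ordered by the organoid change, with bars of 1 SE from edgeR; Krt4 and Anxa10 were not tested in gut. Organoid changes run from -13.25 for Spp1 to 7.40 for Anxa10, and no gut change was called.

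Relatives of the 9 genes by family included members called in each direction, and 66.3% of all genes were called between these groups, so the counts alone set no family apart. Of 9 other annexins, 4 rose and 3 fell from DMSO to Tamoxifen organoids, with Anxa13, an annexin of intestinal epithelium, at 2.04, Anxa10 at 7.40, Anxa6 at -2.34 and Anxa5 at -1.12. Of 13 other S100 genes tested, 6 were lower, among them S100b at -6.41, S100a14 at -1.75 and S100a11 at -1.19, and 2 were higher, with the calcium carrier gene S100g at 4.79. Among 10 other genes of the Ly6 family, 4 were lower, such as Ly6d at -4.55 and Ly6e at -2.66, and 3 were higher, with Lypd8 at 8.20 and Ly6g at 6.99. Against nativ organoids 4 annexins were higher and 3 lower. For S100 genes it was 1 and 7, and for the Ly6 family 2 and 3. These lists overlap the list of other fetal-like genes above. Anxa2, Anxa5, Anxa10, S100a4, S100a10, S100a11, Ly6c1, Ly6d and Ly6e stand in both, so their counts are not separate. S100b and Ly6g also stand in the lists for enteric glia and neutrophils.

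Partners of the encoded proteins were measured too. Of 5 plasminogen activation genes tested, 3 fell and 2 rose in both comparisons with Tamoxifen organoids, where 66.3% and 66.9% of all genes were called. Plau, the urokinase gene whose product binds the Plaur receptor, changed by -2.97 against DMSO, the protease inhibitor gene Serpine2 by -3.88, the tissue-type activator gene Plat by -1.52 and the plasminogen receptor gene Plgrkt by 3.00. Of 11 receptors and binding partners only 4 were tested in organoids. Il1rap, a subunit of the IL-33 receptor, was higher at 2.52, and the clusterin receptor genes Lrp8 and Vldlr stood at 0.57 and -0.48, all 3 called. Il1rl1, the other IL-33 receptor gene of the list, was too low to test, at most 0.488 CPM in any organoid library. The S100A6 partner gene Cacybp at 0.18 was not called (edgeR adjusted p = 0.214). The annexin receptor genes Fpr1 and Fpr3 had 0 reads in Tamoxifen and DMSO organoids. Of 16 genes of the Lgr5 stem cell, 9 rose and 5 fell against DMSO, beside the same shares of all genes. Against nativ organoids 10 rose and 3 fell. Changes against DMSO ran from -1.85 to 11.27. Those of smallest p all rose, with Smoc2 at 11.27, Msi1 at 6.42, Cdca7 at 2.91 and Tnfrsf19 at 2.83. The list did not rise in sum, at 1375 to 1426 CPM in Tamoxifen, 1572 to 2342 in DMSO and 1395 to 1932 in nativ organoids. Lgr5 itself, named after its value was seen, stood at -0.60 (SE 0.25, edgeR adjusted p = 0.0523).

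In gut tissue the 9 genes were not called in PG_KO against ctr libraries, and neither was any other of the 18043 genes tested, 0% by edgeR. At an unadjusted p under 0.05 there were 2705 genes, DESeq2 called 458 and limma-voom 0. Of the 9 genes, 3 passed that unadjusted threshold, namely Clu, Anxa8 and Il33, and none was called by DESeq2 or limma-voom. The median change of the 9 was 0.26, and that of all genes was -0.03. Jup itself, at -2.29 (SE 0.23), had an adjusted p of 0.163 by edgeR.

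Il33 had the widest spread of the 9 in gut, with 57.5, 12.2 and 46.5 CPM in ctr and 272, 143 and 46.0 CPM in PG_KO libraries. The highest PG_KO libraries exceeded all ctr libraries and the lowest fell among them, and the change of 2.03 (SE 0.77) had an edgeR adjusted p of 0.330. The change was 1.29 without PG_KO replicate 1 and 2.48 without PG_KO replicate 3, the limits over leaving out each library, and it was called in neither. Anxa8 stood at 266, 204 and 304 CPM in ctr and 469, 383 and 361 CPM in PG_KO libraries. It was the 1 gene of the 9 whose gut groups did not overlap, and 9.97% of all genes lay higher in PG_KO in this way. Its change was 0.66 (SE 0.22, edgeR adjusted p = 0.330).

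Clu stood at 247, 382 and 95.9 CPM in ctr and 52.5, 63.7 and 151 CPM in PG_KO libraries. The groups overlapped through the lowest ctr and the highest PG_KO library, and the change was -1.43 (SE 0.58, edgeR adjusted p = 0.330). The 8 smooth muscle markers stood at 4401, 3470 and 678 CPM in ctr and 621, 901 and 1191 CPM in PG_KO libraries. They had the order of Clu within PG_KO but not within ctr, and were between 1.22 and 1.72 CPM in organoids. Within PG_KO, fibroblast markers stood at 1358, 1482 and 710 CPM and endothelial markers at 71.4, 119 and 44.4 CPM. Both were lowest in the library where Clu was highest. The 7 T and NK cell markers had the order of Clu within both groups, at 38.6, 39.4 and 17.02 CPM in ctr and 6.62, 11.8 and 12.9 CPM in PG_KO libraries, and did not overlap between groups in sum. B and plasma cell markers (6 genes) had the order of Clu within PG_KO, at 78.1, 132 and 171 CPM, and of smooth muscle markers within ctr, at 582, 468 and 203 CPM. Anxa1 stood at 787, 414 and 584 CPM in ctr and 1101, 996 and 591 CPM in PG_KO libraries. Its groups overlapped, at a change of 0.62 (SE 0.32, edgeR adjusted p = 0.373). Anxa3 varied little, with 221, 207 and 255 CPM in ctr and 270, 278 and 253 CPM in PG_KO libraries, at a change of 0.24 (SE 0.16, edgeR adjusted p = 0.446).

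Ly6a was high in all gut libraries, with 1851, 2301 and 1872 CPM in ctr and 2114, 1427 and 1533 CPM in PG_KO, and per kilobase it ranked between place 7 and 21 of protein-coding genes. The groups overlapped, and its change was -0.23 (SE 0.24, edgeR adjusted p = 0.614). S100a6 stood at 1289, 1047 and 949 CPM in ctr and 1280, 1095 and 1401 CPM in PG_KO libraries, at a change of 0.22 (SE 0.19, edgeR adjusted p = 0.533). Msln stood at 74.5, 17.9 and 50.8 CPM in ctr and 100.3, 41.2 and 62.0 CPM in PG_KO libraries, at a change of 0.55 (SE 0.54, edgeR adjusted p = 0.592), which was 0.12 without PG_KO replicate 1 and 0.98 without ctr replicate 1. Neither gene separated the groups, and for Msln the lowest ctr library was the one with the lowest Il33. The 6 other mesothelial markers summed highest in replicate 1 of each group, at 43.2 CPM in ctr and 15.9 CPM in PG_KO libraries. They had the order of Msln within both groups. Between the groups they went the other way from Msln: all 4 tested had changes below 0 (median -1.32), and none was called. Their part in the Msln values was not tested. Plaur stood at 128, 63.2 and 69.3 CPM in ctr and 171, 99.6 and 31.0 CPM in PG_KO libraries, at 0.26 (SE 0.60, edgeR adjusted p = 0.829). Without PG_KO replicate 1 the change of Plaur turned to -0.40.

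Other cell types differed between the gut libraries. Macrophage markers (8 genes) summed to 1811, 847 and 507 CPM in ctr and 779, 598 and 210 CPM in PG_KO libraries, and neutrophil markers (7 genes) to 2189, 898 and 956 CPM in ctr and 915, 901 and 441 CPM in PG_KO libraries. Il33, Plaur and Anxa1 had the order of the neutrophil markers within both groups. They had the order of the macrophage markers within PG_KO but not within ctr, where replicate 3 was lowest in macrophage markers and replicate 2 in these genes. Fibroblast markers ran from 1006 to 4004 CPM in ctr and from 710 to 1482 in PG_KO libraries. Epithelial markers (7 genes) ran from 5469 to 8259 CPM in ctr and from 8285 to 10084 CPM in PG_KO libraries. Squamous epithelium markers are ones that the intestine lacks and the anal lining has. This list summed to 18.02, 7.41 and 36.2 CPM in ctr and 149, 87.7 and 75.7 CPM in PG_KO libraries. It had the order of Anxa8 within both groups, and of Il33, Anxa1 and Plaur within PG_KO only. In it Sprr3 was at 0 throughout and Ivl at or near 0. Of that list Krt14 changed by 4.02 (edgeR adjusted p = 0.250) and Krt13 by 2.40 (edgeR adjusted p = 0.330), while Krt5, a keratin that pairs with the Krt14 product, went the other way at -0.84 (edgeR adjusted p = 0.460), from 0.766 ± 0.485 CPM in ctr to 0.409 ± 0.0709 in PG_KO libraries. The part of these cell types in the values of the 9 genes was not tested.

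**Figure D5:**
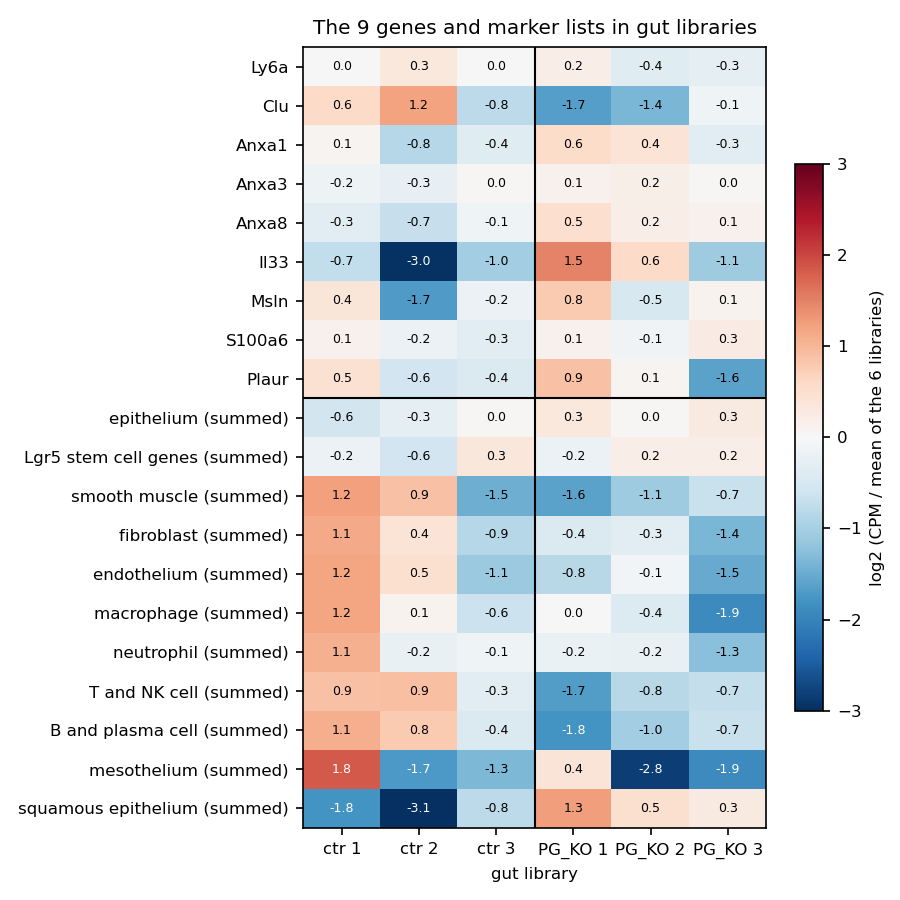
Log2 of CPM over the mean of the 6 gut libraries, for the 9 genes (above the line) and for summed marker lists (below it), with columns for 3 ctr and 3 PG_KO libraries. Il33 runs from -2.97 in ctr replicate 2 to 1.50 in PG_KO replicate 1, and squamous markers are above 0 in all PG_KO libraries. Clu is above 0 in ctr replicates 1 and 2 only. So are smooth muscle, fibroblast, endothelium, macrophage, T and NK cell, and B and plasma cell markers.

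Of the 29 other fetal-like genes 27 were tested in gut, and edgeR called 0 of them, with 4 at an unadjusted p under 0.05 and a median change of -0.03. Anxa2 and S100a10, which form a complex with each other, had the smallest p, at 0.78 (SE 0.20) and 0.59 (SE 0.20), with an edgeR adjusted p of 0.330 for both. Anxa2 stood at 2847 ± 423 CPM in PG_KO and 1676 ± 217 in ctr libraries. Among other annexins, S100 genes and Ly6 genes, 0 of 8, 0 of 12 and 0 of 9 tested were called, with Anxa7 at 0.37, S100a14 at 0.87, S100a16 at 0.71, Ly6g at -0.75 and Lypd8 at -0.87. Plasminogen activation genes, binding partners and Lgr5 stem cell genes also had 0 called of 7, 9 and 16 tested.

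The gut and organoid changes were compared in an edgeR fit of 12 libraries, as PG_KO minus ctr less Tamoxifen minus DMSO, contrasts that share no library. The difference was called for 7 of the 9 genes, all with the gut change above the organoid change, and for 36.4% of all 19141 genes tested, 15.7% with gut above. It was 6.50 for Clu (SE 0.70, adjusted p = 5.16e-05 by edgeR), 4.32 for Msln, 3.97 for Anxa1, 3.37 for Anxa8, 2.79 for Anxa3, 1.93 for S100a6 and 1.85 for Ly6a. Il33 at 2.12 (SE 0.86, edgeR adjusted p = 0.0777) and Plaur at 1.84 (SE 0.71, edgeR adjusted p = 0.0636) were not called, and Jup at 0.18 (SE 0.22, edgeR adjusted p = 0.576) was not called either. The median difference was 2.79 for the 9 genes and -0.14 for all genes. Gut tissue holds other cell types, and the organoid groups differ in code and treatment as well as in Jup, so the sources of the difference cannot be told apart.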

How the data were processed

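Expected counts (reads per gene), not scaled between libraries, are the values the authors deposited, in 1 table for organoids and 1 for gut. Per the submitters' processing notes, reads were handled with STAR 2.7.2b, featureCounts 1.6.4, cutadapt 2.5, bcl2fastq 2.20.0.422 and DESeq2, on the build GRCm38.p6. Strand setting and read filters are not given in the sources used here. Between 10.4% and 13.7% of a library's values were not whole, as when reads matching several genes are divided among them (the counting rule is not given in the sources used here): this held for Ly6a in 15 libraries, Clu in 5, S100a6 in 3 and the other 6 genes in 0.

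Samples were grouped by their descriptions. Values were rounded and fitted with edgeR 4.0.16 (TMM factors, filterByExpr, robust quasi-likelihood F test, Benjamini-Hochberg adjustment) in R 4.3.3, with 1 fit for 9 organoid and 1 for 6 gut libraries. The standard error of a log2 change is its size over the root of F. CPM are scaled by library totals, and RPKM also by the deposited exon length. In a library 3 reads correspond to 0.0976 to 0.129 CPM, a floor for counting error only. Alternatives were DESeq2 1.42.0, limma-voom (limma 3.58.1), RLE factors, library totals, other low-count filters, a replicate block, fits of just the libraries compared, and leaving out libraries. The fit was also run on simulated data with 200 changed genes, and the outcome is not reported here. Far more genes were called in the organoid comparisons with Tamoxifen, so that run does not show the accuracy of the fit there.

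The 9 genes and 20 other gene lists were chosen with earlier results of these data known. Named are all 9, and of each other list the 4 called genes of smallest p per comparison (2 where none was called), and for likeness the 2 closest genes. Some genes of the lists are not reported here. Other genes are said to be named after their values were seen. Plots used matplotlib 3.10.9 under Python 3.11.15.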

Additional observations from a re-analysis of the deposited data

Results flagged for a closer look

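For 7 genes the change between PG_KO and ctr gut differed from the change between Tamoxifen and DMSO organoids by an interaction test (edgeR, 12 libraries), which called 36.4% of all genes, 15.7% with the gut change above. Gut minus organoid log2 differences were 1.85 for Ly6a (adjusted p = 2.74e-04), 6.50 for Clu (5.16e-05), 3.97 for Anxa1 (1.93e-05), 2.79 for Anxa3 (1.26e-06), 3.37 for Anxa8 (1.03e-05), 4.32 for Msln (4.14e-04) and 1.93 for S100a6 (1.19e-04). In each case the organoid change was well below 0. The gut change was above 0 for Anxa1, Anxa3, Anxa8, Msln and S100a6 and below 0 for Ly6a and Clu, and none of these gut changes was called on its own.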

How the results depend on the processing

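The counts of the 9 genes called lower in Tamoxifen organoids (8 against DMSO and 8 against nativ) and called at all between DMSO and nativ (0) and in gut (0) were the same under all 14 alternatives of each comparison. The interaction count of 7 ran from 7 to 9 over 15 alternatives: Il33 was called with DESeq2 (2.13), without ctr replicate 1 (2.55) and without PG_KO replicate 3 (2.67), and Plaur with DESeq2 (1.86), with nativ in place of DMSO organoids (1.87), without ctr replicate 1 (2.28) and without PG_KO replicate 3 (2.40). Over all genes, the 0 calls between DMSO and nativ became 157 with DESeq2, 2 without a low-count filter and 1 without nativ replicate 1, and the 0 calls in gut became 458 with DESeq2, 5 without the filter and 1478 without ctr replicate 3. Library totals in place of TMM moved the median of all genes in Tamoxifen against nativ from 0.01 to 0.13.

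Changes that turned sign were all small or uncalled. Il33 in Tamoxifen against DMSO ranged from -0.29 to 0.024 on leaving out single libraries. Between DMSO and nativ, library totals gave 0.011 for Anxa3, 0.0045 for Il33 and 0.035 for Msln, and Msln also became 0.0034 with DESeq2, 0.0034 with RLE factors and 0.0025 without a filter. On leaving out single libraries that comparison ranged from -0.15 to 0.059 for Anxa3, from -0.26 to 0.077 for Anxa8, from -0.18 to 0.13 for Il33, from -0.11 to 0.080 for Msln, from -0.21 to 0.048 for S100a6 and from -0.17 to 0.22 for Plaur. In gut, Plaur became -0.0060 with limma-voom and ranged from -0.40 to 0.70 on leaving out single libraries, Il33 from 1.29 to 2.48, Clu from -2.02 to -0.90, Msln from 0.12 to 0.98, Anxa1 from 0.42 to 0.86, Anxa8 from 0.52 to 0.86, Anxa3 from 0.19 to 0.39, S100a6 from 0.16 to 0.34 and Ly6a from -0.45 to -0.084. Without ctr replicate 1 and PG_KO replicate 3 together, Il33 stood at 2.82, Plaur at 1.04, Msln at 1.05, Anxa1 at 1.07 and Clu at -2.04, and the other 4 genes stayed within the single-library limits. The cause was not tested.

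Same-numbered replicates did not pair: correlations of their deviations ran from -0.18 to 0.29 in gut and from -0.12 to 0.19 in organoids. With the replicate number as a block, 8, 8, 0 and 0 of the 9 genes were called, and 10823, 10838, 0 and 0 genes in all. Spread between 3 libraries a group, more than depth, limits the gut values.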

Other observations

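Markers of cells that organoid culture should lack were low in organoids but not all at 0. Macrophage markers (8 genes) summed to 32.5 to 32.7 CPM in Tamoxifen and 71.5 to 104 CPM in DMSO and nativ organoids, nearly all of it from Cd68, which was lower in Tamoxifen, and from the lysozyme gene Lyz2, which was higher there. Neutrophil markers (7 genes) summed to 16.7 to 17.6 CPM in Tamoxifen and 0.983 to 1.80 CPM in the others, with Ly6g at 16.2 ± 0.492 CPM in Tamoxifen. Fibroblast markers stayed between 0.762 and 1.63 CPM, endothelial ones between 17.4 and 36.6 CPM and T and NK cell markers at or below 0.143 CPM in all organoid libraries. B and plasma cell markers stayed at or below 0.818 CPM, and enteric neuron and glia markers between 7.31 and 11.1 CPM.

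Of 7 general epithelial markers 5 rose and 2 fell in Tamoxifen against both other organoid groups, with Epcam rising and Krt18 falling. Against DMSO all 8 intestinal identity genes were higher, with a median log2 change of 6.97. Of the 12 genes of stomach, bile duct and pancreas 5 were tested and all 5 were lower (median -9.15). Of 5 tested squamous genes 3 were lower. Beside these counts, 33.9% of all genes were called higher and 32.4% lower against DMSO. Against nativ organoids it was 33.5% in each direction.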
